A study of Homo sapiens with 6 samples.

Results

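AP-1 is a family of transcription factors, and 10 of its genes were followed here after knockdown of TAZ in lung fibroblasts. They are the Fos genes FOS, FOSB, FOSL1 and FOSL2, the Jun genes JUN, JUNB and JUND, the small Maf genes MAFF and MAFK, and BATF3. The members were taken by their symbols from the deposited table of read counts, which lists 23355 genes, and all 10 were present and passed the filter on low counts. The cells were HFL-1, an established line of fibroblasts from human fetal lung. They were transfected by lipofection with a non-targeting siRNA (siNTC) or with one of a pair of siRNAs against TAZ (siTAZ #1 and siTAZ #2), so that every group carried an siRNA and there was no untransfected group. RNA was taken after 48 h, and each group had 2 libraries, which the series describes as biological replicates. A single cell line was used, and p-values measure the spread between these cultures.

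AP-1 proteins bind DNA as pairs through a basic leucine zipper (bZIP). Jun proteins can pair with each other or with Fos proteins, while Fos proteins need a Jun partner, and the pairs bind the sequence TGACTCA or, with ATF partners, TGACGTCA. Small Maf proteins carry the zipper but no activating domain, and they pair mainly with NFE2L2, NFE2L1 and BACH1 at antioxidant response elements. FOS, FOSB, JUN and JUNB are classical immediate early genes, which growth factors induce within minutes. For FOS, FOSB and JUNB this runs through ERK and the serum response factor. TAZ, the product of WWTR1, is a coactivator that reaches DNA through TEAD factors, and AP-1 sites lie next to TEAD sites in many of the enhancers it occupies. In fibroblasts, AP-1 is known for driving matrix-degrading proteases, cytokines and cyclin D1.

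Levels are given as CPM, the counts of a gene after TMM scaling to a common library size, and a fold change is on the log2 scale with its standard error. A gene was called when the false discovery rate (FDR) of edgeR's quasi-likelihood test was under 0.05 over the 14053 genes tested. The libraries held 15648055 to 32078188 counts, of which 8447 to 20530 fell on the 10 members. WWTR1 was at 131 ± 1.00 CPM (SD, n = 2) with siNTC, 27.4 ± 1.42 with siTAZ #1 and 44.5 ± 2.14 with siTAZ #2, and it fell with both siRNAs (log2 fold changes -2.26 and -1.56, FDR 0.00062 and 0.00068). Between the siRNAs, the level with siTAZ #1 was the lower (log2 difference -0.70, FDR 0.005). In replicate 2 of siTAZ #1, counts were nearly missing from RANGAP1 on chromosome 22 onward and through X and Y. This near-empty stretch holds 579 of the tested genes. No member lies there, but these genes enter the spread shared by all tests, so calls that change when they are left out are given beside the result. The 8 fibroblast markers summed to 29044 to 29627 CPM with siNTC, 18574 to 19827 with siTAZ #1 and 22712 to 25116 with siTAZ #2. Against siNTC, 4 of them fell and 2 rose with each siRNA. With siTAZ #1, COL1A1, COL1A2, DCN and LUM fell, and PDGFRA (log2 fold change 1.72, from 423 to 1395 CPM) and PDGFRB (0.39) rose. With siTAZ #2, COL1A2, COL3A1, DCN and LUM fell, and PDGFRB (0.54) and THY1 (0.50) rose. The 5 epithelial markers summed to at most 5.60 CPM and the 3 endothelial markers to at most 3.38 CPM. Of the 3 blood markers, 2 were at 0 in a library, and the sum was 37.9 to 48.4 CPM with siTAZ #2 against 68.8 to 75.5 in the other groups. Nearly all of this sum was CD68, at 74.4 CPM on average with siNTC, 72.0 with siTAZ #1 and 43.0 with siTAZ #2. PTPRC and HBB averaged at most 0.19 CPM in any group, so the sum is no measure of blood cells. In such bulk RNA, fewer cells of a type and less RNA per cell cannot be told apart. The part of these markers in the results was not tested.

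Of the 10 members, 4 were called with siTAZ #1 against siNTC, 3 of them higher (FOSL1, MAFF and MAFK) and 1 lower (FOSL2). The share over all genes tested was 20.6%. With siTAZ #2, 3 members were called, 2 higher (JUNB and MAFK) and 1 lower (FOSL1), against 28.5% of all genes. MAFK rose with both siRNAs, FOSL1 was called in opposite directions, and no member was called lower with both. FOSL2 lay below the control with both siRNAs, but was not called with siTAZ #2 (log2 fold change -0.40, FDR 0.053). The median log2 fold change of the members was 0.35 with siTAZ #1 and 0.32 with siTAZ #2, against 0.02 and 0.01 over all genes. The libraries of the groups did not overlap for 6 of 10 members with siTAZ #1 and for 9 of 10 with siTAZ #2, against 64.3% and 71.4% of all genes. Without replicate 1 or without replicate 2 of siNTC, 1 member was called with siTAZ #1, namely FOSL2, and calls over the whole table were then fewer too, the lowest counts over single omissions being 283 lower and 276 higher against 1374 and 1515 with all libraries. The log2 fold changes with siTAZ #2 use no siTAZ #1 library, so leaving one of those out could hardly move them. It could change their FDR through the shared spread. Over the omissions of a siNTC or siTAZ #2 library, the value with siTAZ #2 ran from -0.52 to -0.30 for FOSL2 and from 0.40 to 0.61 for JUND.

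**Figure D1:**
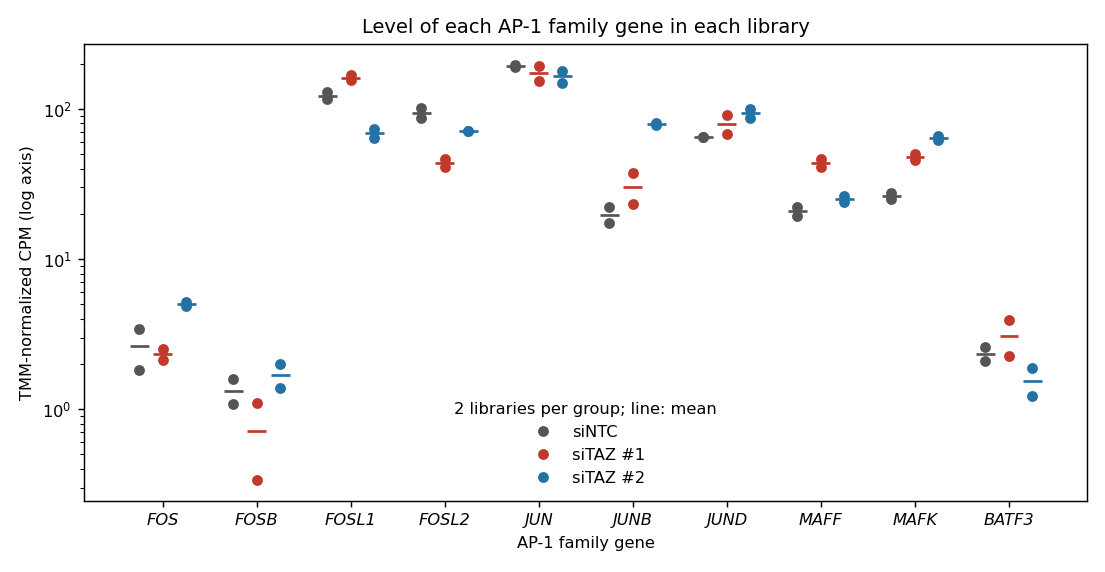
TMM-normalized CPM of each AP-1 family gene on a log axis, with 1 point per library, 2 libraries per group and a line at the mean. The siTAZ #2 points of JUNB lie at 77.97 and 81.0 CPM, above all other libraries, and the siTAZ #1 points of FOSL2 lie at 40.9 and 46.2 CPM, below all others.

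The order of the members was read per length, as CPM per kilobase of exon in the GENCODE annotation, which is not the one the authors counted on. With siNTC, FOSL1 was the highest at 64.97 CPM per kilobase, followed by JUN at 53.5 and JUND at 33.8, and these levels did not overlap between libraries. FOSL2 at 13.2 and JUNB at 10.8 did overlap, and MAFK and MAFF followed at 5.91 and 3.70. BATF3 at 0.910 overlapped with FOS at 0.824, and FOSB was the lowest at 0.239. With siTAZ #1, FOSL1 was again first at 85.7, JUN at 47.9 overlapped with JUND at 41.4, and FOSL2 at 6.08 came after JUNB, MAFK and MAFF. With siTAZ #2, JUND at 48.4 overlapped with JUN at 45.4, and JUN overlapped with JUNB at 43.4. FOSL1 followed in that group, at 36.4 CPM per kilobase, with no overlap with JUNB above it.

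FOSL1 encodes FRA1, a Fos protein without the strong activating domain of FOS, and is itself induced by AP-1. The gene is on chromosome 11 from 65659520 to 65668044 of GRCh37. Its level was 116 and 129.5 CPM in the siNTC libraries, at 156 and 168 CPM with siTAZ #1 and at 64.3 and 73.2 CPM with siTAZ #2. Both siTAZ #1 libraries lay above the control and both siTAZ #2 libraries below it. The log2 fold change was 0.40 ± 0.11 (SE, FDR 0.047) with siTAZ #1 and -0.83 ± 0.11 (SE, FDR 0.0038) with siTAZ #2. The rise with siTAZ #1 lost its call in 10 of 16 alternatives (FDR 0.0077 to 0.25), among them each omission of a siNTC or siTAZ #2 library and of replicate 2 of siTAZ #1, whereas the fall with siTAZ #2 kept it in 16 of 16. Compared directly, FOSL1 was 2.35-fold higher with siTAZ #1 than with siTAZ #2 (log2 difference 1.23 ± 0.11, FDR 0.0014).

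FOSL2 encodes FRA2, the closest relative of FRA1, and mice that overexpress it are known to develop lung fibrosis. The gene is on chromosome 2 from 28615315 to 28640184. Its level was 87.2 and 102 CPM with siNTC, at 46.2 and 40.9 CPM with siTAZ #1 and at 71.2 and 71.7 CPM with siTAZ #2. All 4 siTAZ libraries lay below both control libraries, and those of siTAZ #1 were the lowest. FOSL2 fell 2.17-fold with siTAZ #1 (log2 fold change -1.12 ± 0.12, FDR 0.0035), a call kept in 16 of 16 alternatives. With siTAZ #2 the log2 fold change was -0.40 ± 0.12 and was not called (FDR 0.053). It was called in 8 of 16 alternatives, with FDR 0.021 when the genes of the near-empty stretch were left out and 0.0068 and 0.0065 without replicate 1 or replicate 2 of siTAZ #1. The direct difference was -0.71 ± 0.12 (FDR 0.0088), lower with siTAZ #1, and its call was lost without replicate 2 of siTAZ #2 (FDR 0.057).

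The balance of this pair of genes also differed between the siRNAs. FOSL1 took 57.0% and 56.0% of the counts of FOSL1 and FOSL2 in the siNTC libraries, with 95% Wilson intervals from 54.4% to 58.7%. It took 77.1% and 80.4% with siTAZ #1 (intervals from 75.6% to 81.3%) and 47.5% and 50.5% with siTAZ #2 (intervals from 45.6% to 52.5%). These intervals cover counting error only. Those of different groups did not overlap, but neither did those of the siTAZ #1 replicates (75.6% to 78.6% and 79.4% to 81.3%). They therefore do not measure the spread between cultures, and no test was made on the shares.

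FOS and FOSB, the inducible Fos genes, had few counts. FOS, on chromosome 14 from 75745529 to 75748933, was at 3.42 and 1.83 CPM with siNTC, at 2.51 and 2.11 CPM with siTAZ #1 and at 5.14 and 4.83 CPM with siTAZ #2, from 29 to 110 counts per library. Both siTAZ #2 libraries lay above the other 4. The log2 fold changes were -0.19 ± 0.37 (FDR 0.75) with siTAZ #1 and 0.92 ± 0.36 (FDR 0.11) with siTAZ #2, and neither was called. The direct difference of -1.11 ± 0.36 was not called either (FDR 0.067), but it was in 3 of 16 alternatives, with FDR 0.031 without the near-empty stretch and 0.0497 without replicate 2 of siNTC. FOSB, on chromosome 19 from 45971253 to 45978437, was at 1.08 and 1.58 CPM with siNTC, at 1.10 and 0.337 CPM with siTAZ #1 and at 2.01 and 1.39 CPM with siTAZ #2. The siNTC libraries overlapped with those of each siTAZ group, and no contrast was called (FDR 0.18 to 0.71), although without replicate 1 of siTAZ #1 the direct difference was -2.32 (FDR 0.028). Without replicate 2 of siTAZ #1 that difference was -0.64 (FDR 0.54). With 11 to 43 counts per library, the 95% interval of its log2 fold change ran from -2.60 to 0.65 with siTAZ #1 and from -1.17 to 1.90 with siTAZ #2, so that changes of this size were not detectable at this depth. FOS and FOSB together took 1.16% to 2.17% of the Fos counts in the siNTC and siTAZ #1 libraries and 4.11% and 5.01% with siTAZ #2.

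The 4 Fos genes summed to 207 and 235 CPM with siNTC, to 206 and 211 CPM with siTAZ #1 and to 143 and 151 CPM with siTAZ #2. The sum with siTAZ #1 overlapped with the control and that with siTAZ #2 lay below it.

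**Figure D2:**
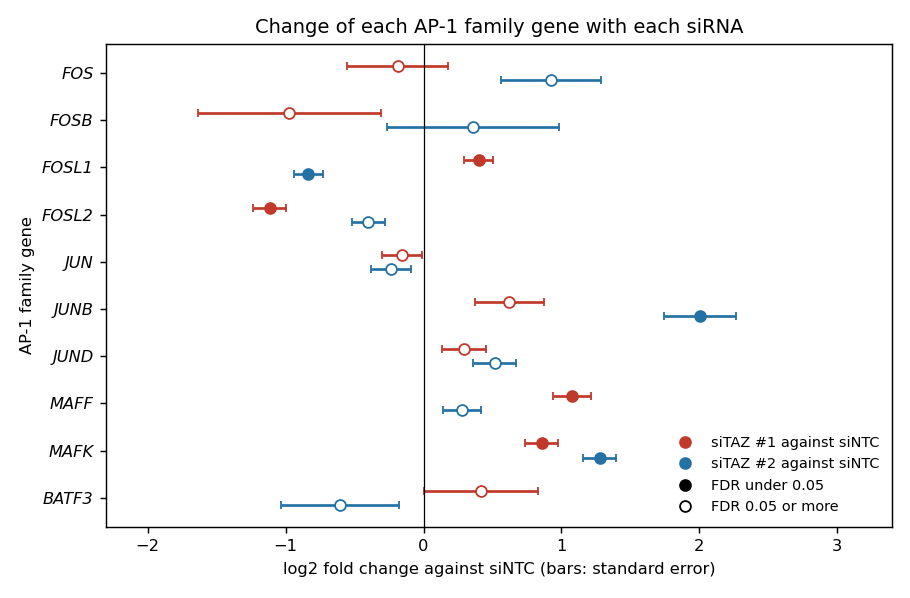
Log2 fold change of each AP-1 family gene against siNTC, with bars for the standard error, filled points for FDR under 0.05 and open points otherwise (2 libraries per group). FOSL1 lies at 0.40 with siTAZ #1 and at -0.83 with siTAZ #2, and MAFK lies above 0 with both, at 0.86 and 1.28.

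JUN, on chromosome 1 from 59242517 to 59249720, encodes the main Jun protein and the usual partner of Fos proteins. It was at 191 and 197 CPM with siNTC, at 153 and 194 CPM with siTAZ #1 and at 179.9 and 149 CPM with siTAZ #2. The siTAZ #1 libraries spread across the range of the others. The log2 fold changes of -0.16 ± 0.15 (FDR 0.49) and -0.23 ± 0.15 (FDR 0.28) were not called. The difference between the siRNAs was not called (log2 difference 0.08, 95% interval -0.28 to 0.44, FDR 0.72), and this interval does not show that they were equal.

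JUNB, a Jun protein that activates more weakly than JUN and can oppose it, had the largest change of the 10 members. The gene spans 12902300 to 12904129 of chromosome 19. It was at 22.3 and 17.3 CPM with siNTC, at 23.3 and 37.5 CPM with siTAZ #1 and at 81.0 and 77.97 CPM with siTAZ #2. The siTAZ #2 libraries agreed closely and lay far above the rest, while the siTAZ #1 libraries differed from each other and 1 of them lay just above the higher control. JUNB rose 4.02-fold with siTAZ #2 (log2 fold change 2.01 ± 0.26, FDR 0.0039), a call kept in 16 of 16 alternatives. With siTAZ #1 the log2 fold change was 0.62 ± 0.25 (FDR 0.14) and was not called. That value passed in 3 of 16 alternatives, with FDR 0.026 without the near-empty stretch and 0.017 by DESeq2, and without replicate 1 of siTAZ #1 it was 0.92 (FDR 0.00021). Without replicate 2 of siTAZ #1 it was 0.23 (FDR 0.39). The level with siTAZ #1 was below that with siTAZ #2 (log2 difference -1.38 ± 0.25, FDR 0.012), and this call was lost without either siTAZ #2 library (FDR 0.062 in both cases). JUNB shares 259 bases, 14.2% of its exons, with HOOK2 on the other strand, and the strand setting of the counting is not given in the sources used here. HOOK2 was at 11.2 CPM on average with siNTC, at 7.82 CPM with siTAZ #1 and at 15.2 CPM with siTAZ #2, and was not called against siNTC. Between the siRNAs it was called, lower with siTAZ #1 (log2 difference -0.95, FDR 0.018), which is the direction of JUNB. The part of HOOK2 reads in the JUNB counts was not tested.

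JUND, on chromosome 19 from 18390504 to 18392432, encodes the Jun protein that resting cells express steadily. It was at 65.1 and 65.3 CPM with siNTC, at 68.5 and 91.2 CPM with siTAZ #1 and at 86.8 and 99.8 CPM with siTAZ #2. All siTAZ libraries lay above the control, and the groups of the siRNAs overlapped with each other. The log2 fold changes were 0.29 ± 0.16 (FDR 0.24) with siTAZ #1 and 0.52 ± 0.16 (FDR 0.056) with siTAZ #2, and neither was called. Without the near-empty stretch, the siTAZ #2 value was called (FDR 0.0079), as it was without replicate 1 or replicate 2 of siTAZ #1 (FDR 0.00085 and 0.00087). Without replicate 1 of siTAZ #1, the value with that siRNA was 0.48 and was called (FDR 0.0062), and without its replicate 2 it was 0.072 (FDR 0.76). With an offset for GC content, the log2 fold changes of JUND turned to -0.072 with siTAZ #1 and -0.23 with siTAZ #2. The difference between the siRNAs was not called (log2 difference -0.22, 95% interval -0.61 to 0.16, FDR 0.34), but without replicate 2 of siTAZ #1 it was -0.44 (FDR 0.017) and without replicate 1 it was -0.032 (FDR 0.87).

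JUNB took 8.02% and 6.19% of the counts of the 3 Jun genes with siNTC. Its share was 9.51% and 11.6% with siTAZ #1, and 23.3% and 23.8% with siTAZ #2. The share of JUN was 68.6% and 70.5% with siNTC, 62.5% and 60.2% with siTAZ #1, and 51.7% and 45.7% with siTAZ #2. These are shares within a library, and no test was made on them. The Jun genes summed to 278 and 279 CPM with siNTC, 245 and 323 CPM with siTAZ #1, which lie on either side of the control, and 348 and 327 CPM with siTAZ #2.

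The promoters of JUNB, the member with the largest change, and of JUND, which holds a motif of the family, are shown next. Each is the stretch of 250 bases before the gene start in the RefSeq promoter table, on the gene's strand. Its position was found as the only exact match in GRCh37, at chr19:12902050-12902299 on the plus strand for JUNB and at chr19:18392433-18392682 on the minus strand for JUND. Capitals mark TGACGTCA, the cyclic AMP response element that pairs of Jun and ATF proteins can bind.
JUNB: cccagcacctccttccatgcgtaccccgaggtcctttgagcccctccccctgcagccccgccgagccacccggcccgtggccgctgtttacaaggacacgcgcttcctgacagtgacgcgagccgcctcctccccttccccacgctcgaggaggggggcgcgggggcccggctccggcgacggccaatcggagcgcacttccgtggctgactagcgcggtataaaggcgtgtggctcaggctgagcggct
JUND: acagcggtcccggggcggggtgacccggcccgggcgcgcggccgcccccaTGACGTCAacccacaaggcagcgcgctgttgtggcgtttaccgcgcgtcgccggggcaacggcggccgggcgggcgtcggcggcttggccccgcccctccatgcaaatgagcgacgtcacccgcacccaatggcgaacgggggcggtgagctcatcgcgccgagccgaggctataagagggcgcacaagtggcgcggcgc
The promoters had a GC content of 70.8% and 74.8%. The table held 8 promoters for 7 of the 10 members, with none for FOSL1, MAFK or BATF3. The AP-1 motif TGACTCA, the element TGACGTCA and the CArG box of the serum response factor were searched on both strands, and none of them contains another. So was the TEAD motif GGAATG, which is in none of these either. TGACGTCA was found in 1 promoter of JUND, from 200 to 193 bases before the start, and in 1 of the promoters of MAFF, against 1.65% of the 35116 promoters in the table. The other motifs were in none of the 8, and in 4.203%, 11.9% and 1.16% of the table for the AP-1, TEAD and CArG motifs in that order. A match is a description of these letters, and its absence says only that they are not in these windows.

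Of the small Maf genes, MAFK rose with both siRNAs and MAFF with siTAZ #1. MAFK, on chromosome 7 from 1570338 to 1582679, was at 27.7 and 25.2 CPM with siNTC, at 46.0 and 49.8 CPM with siTAZ #1 and at 65.6 and 62.5 CPM with siTAZ #2. The 3 groups did not overlap. MAFK rose 1.81-fold with siTAZ #1 (log2 fold change 0.86 ± 0.12, FDR 0.0068) and 2.42-fold with siTAZ #2 (1.28 ± 0.12, FDR 0.0016). The call with siTAZ #2 was kept in 16 of 16 alternatives, and that with siTAZ #1 was lost without replicate 1 or replicate 2 of siNTC (FDR 0.057 and 0.070). Its level with siTAZ #1 was below that with siTAZ #2 (log2 difference -0.42 ± 0.12, FDR 0.045), but this call was lost in 9 of 16 alternatives (FDR 0.014 to 0.48), among them the omission of any library other than replicate 2 of siTAZ #1. MAFK shares 809 bases, 18.1% of its exons, with TMEM184A on the other strand, which was at 0.693 to 1.94 CPM on average in the 3 groups.

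MAFF, on chromosome 22 from 38596774 to 38612514, was at 19.4 and 22.1 CPM with siNTC, at 46.4 and 41.2 CPM with siTAZ #1 and at 26.2 and 24.1 CPM with siTAZ #2. The siTAZ #1 libraries stood apart from the other 4. MAFF rose 2.11-fold with siTAZ #1 (log2 fold change 1.08 ± 0.14, FDR 0.0056), a call lost without replicate 1 or replicate 2 of siNTC (FDR 0.066 and 0.051). With siTAZ #2 the log2 fold change was 0.28 ± 0.14 (FDR 0.19), called in none of the 16 alternatives, and with an offset for GC content it was 0.06. The direct difference was 0.80 ± 0.14 (FDR 0.0097), higher with siTAZ #1, and was not called without replicate 2 of siTAZ #2 (FDR 0.070). MAFF shares 326 bases, 5.81% of its exons, with PLA2G6 on the other strand, which was at 4.93 to 8.57 CPM on average. The motif of the family is in 1 of its promoters, from 54 to 47 bases before the start that RefSeq gives for that promoter. This promoter runs from 38597751 to 38598000 and so lies inside the span of the gene given above, not before it. The motif is shown in capitals with 11 bases on either side, at chr22:38597936-38597965 of GRCh37 on the plus strand.
MAFF: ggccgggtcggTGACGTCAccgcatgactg

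Summed, the small Maf genes were at 47.1 and 47.3 CPM with siNTC, at 92.4 and 91.0 CPM with siTAZ #1 and at 91.8 and 86.6 CPM with siTAZ #2. The sums of the siRNAs lay close together, while the makeup differed. MAFK took 58.8% and 53.2% of the counts of the pair with siNTC, 49.8% and 54.7% with siTAZ #1 and 71.4% and 72.2% with siTAZ #2. The sum over all 10 members was 535 to 563 CPM in the control, 545 to 629 CPM with siTAZ #1 and 567 to 583 CPM with siTAZ #2.

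**Figure D3:**
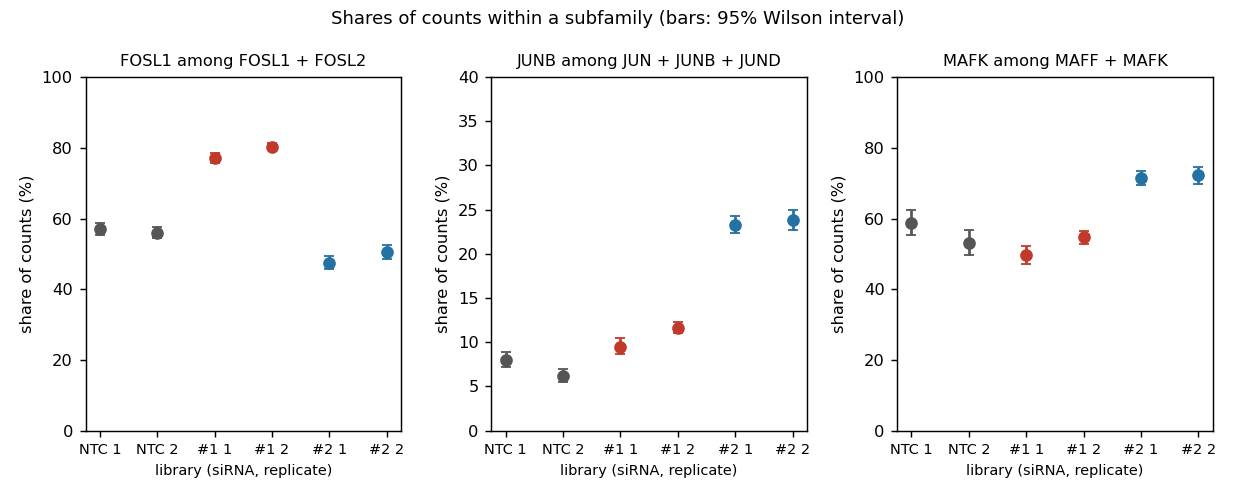
Share of counts (%) taken by FOSL1, JUNB and MAFK within their subfamily in each library, with bars for the 95% Wilson interval, which covers counting error only. FOSL1 goes from 56.0% and 57.0% with siNTC to 77.1% and 80.4% with siTAZ #1, and JUNB reaches 23.3% and 23.8% with siTAZ #2.

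BATF3, which pairs with Jun proteins and is best known from dendritic cells, was the remaining member. The gene spans 212859760 to 212873180 of chromosome 1. It was at 2.60 and 2.08 CPM with siNTC, at 2.26 and 3.92 CPM with siTAZ #1 and at 1.21 and 1.87 CPM with siTAZ #2, from 26 to 128 counts per library. The siTAZ #2 libraries lay below the other 4. Its log2 fold changes were 0.42 ± 0.41 (FDR 0.52) and -0.61 ± 0.43 (FDR 0.34), and the direct difference was 1.02 ± 0.42 (FDR 0.13). None was called at this depth. Without replicate 2 of siTAZ #1 the value with that siRNA was -0.052, and without its replicate 1 the direct difference was 1.36 (FDR 0.047). Without replicate 2 the direct difference was 0.56 (FDR 0.53).

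The siRNAs were compared with each other to ask which members responded differently to them. The direct test called 5 of 10 members, against 28.6% of all genes. FOSL1 and MAFF were higher with siTAZ #1, and FOSL2, JUNB and MAFK were higher with siTAZ #2. The groups did not overlap for 8 of 10 members, against 65.6% of all genes, and the exceptions were JUN and JUND. Without replicate 1 or without replicate 2 of siTAZ #2, the log2 difference was 1.14 or 1.34 for FOSL1 and 0.86 or 0.75 for MAFF. It was -0.72 or -0.70 for FOSL2, -1.36 or -1.41 for JUNB and -0.38 or -0.45 for MAFK. The calls lost in these fits are given above with each gene. TAZ itself was at different levels in these groups, as given above, and the part of that difference was not tested.

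The changes were also set beside the GC content of the exons, since GC-rich genes tended to be higher with siTAZ #2. Of the members, BATF3 had the lowest GC content (48.0%), and MAFK (64.4%), JUNB (64.9%) and JUND (69.9%) had the highest, while the median of the genes tested was 47.7%. With siTAZ #2, the median log2 fold change was -0.03 for genes under 45% GC, -0.09 from 45% to 55%, 0.18 from 55% to 65% and 0.61 for the 352 genes at 65% or more. With siTAZ #1, the same medians were 0.11, -0.08, -0.01 and 0.29. With an offset for GC content, JUNB with siTAZ #2 was at 1.54 (FDR 0.0078) and MAFK at 0.83 (FDR 0.0044), both again called. The MAFK difference between the siRNAs was then -0.12 (FDR 0.48), and FOSL1 with siTAZ #2 was at -1.03 (FDR 0.0017). What set the GC trend was not tested.

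**Figure D4:**
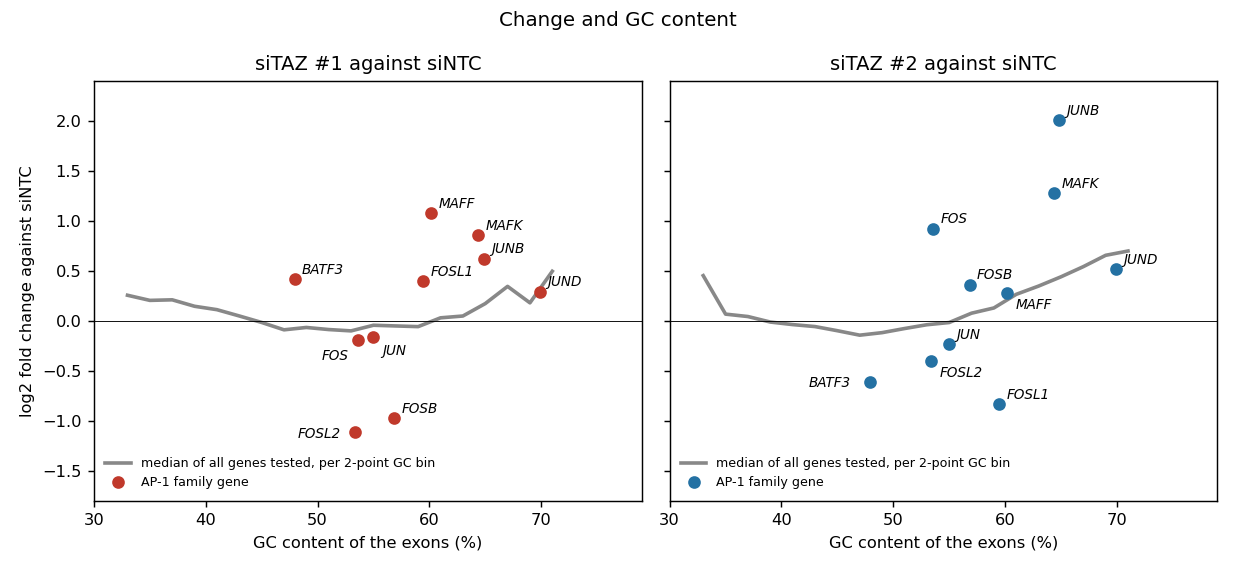
Log2 fold change against siNTC over the GC content of the exons (%), with siTAZ #1 on the left and siTAZ #2 on the right, points for the AP-1 family genes and a grey line for the median of all genes tested in each GC bin. JUNB (2.01) and MAFK (1.28) lie above the line with siTAZ #2, where JUND (0.52 at 69.9% GC) lies just under it.

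Genes around AP-1 were read from lists by role, whose counts stand beside 9.78% lower and 10.8% higher with siTAZ #1, and 14.4% lower and 14.1% higher with siTAZ #2, over all genes tested. Their values are log2 fold changes. Of the serum-induced immediate early genes, 11 of 16 rose with siTAZ #1, none fell and 5 were not called, and the median change was 0.79 (log2). With siTAZ #2, 9 of 16 rose, 2 fell (KLF4 and ZFP36) and 5 were not called, with a median of 0.56. The transcription factor EGR1 rose by 1.36 ± 0.13 with siTAZ #1 (FDR 0.0024) and 1.23 ± 0.13 with siTAZ #2 (FDR 0.0022). Its relative EGR2 rose by 1.94 and 2.72, the survival gene IER3 by 1.47 and 1.31, and the nuclear receptor gene NR4A1 by 1.59 and 1.02 (FDR 0.00081 to 0.011). These and 4 others were higher with both siRNAs. Of the members in the same class, JUNB was called higher with siTAZ #2 (2.01, FDR 0.0039) and not called with siTAZ #1 (0.62, FDR 0.14). FOS and FOSB, which had few counts, were not called. FOS lay above both control libraries with siTAZ #2 (0.92, FDR 0.11). JUN, which was well counted, was below 0 with both siRNAs and not called (-0.16, FDR 0.49, and -0.23, FDR 0.28). NR4A2 had the clearest difference between the siRNAs, at 1.28 with siTAZ #1 and -0.61 with siTAZ #2, which was not called (direct difference 1.89 ± 0.19, FDR 0.002). Without replicate 1 or replicate 2 of siNTC, fewer of these genes were called higher with each siRNA. Calls over all genes could also fall with a library left out, as given at the end.

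Of the 13 genes that dampen ERK and JNK signaling, 7 rose and 1 fell with siTAZ #1 (median 0.65), and 4 rose and 2 fell with siTAZ #2 (median 0.05). The phosphatase genes DUSP4 and DUSP6 rose with both siRNAs, DUSP4 by 2.52 and 1.43 and DUSP6 by 1.98 and 1.22. SPRY4, an inhibitor of growth factor signaling, rose by 1.93 and 1.54, while the phosphatase gene DUSP5 fell by 1.02 and 0.79. DUSP1 was the other gene that fell with siTAZ #2 (-1.12), and DUSP8 (1.16) was the other that rose. SPRY1 rose with siTAZ #1 (1.95) and was at -0.32 with siTAZ #2, not called (direct difference 2.27 ± 0.28, FDR 0.0033). Fewer of these genes, too, were called higher with each siRNA without replicate 1 or replicate 2 of siNTC. The same limit on calls over all genes applies.

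Of the 18 AP-1 target genes, 12 rose and 1 fell with siTAZ #1 (median 0.91), and 10 rose and 3 fell with siTAZ #2 (median 0.78). The cytokine gene IL11 rose by 2.22 and 1.93, the protease gene PLAU by 1.49 and 0.78, its receptor gene PLAUR by 0.81 and 1.09, and TGFB1 by 0.82 and 2.14 (FDR 0.00064 to 0.0094). These and 3 others were higher with both siRNAs, and HMOX1, the heme oxygenase gene that NFE2L2 and small Maf proteins also control, fell with both (-0.75 and -1.02). VIM (-0.43) and PTGS2 (-1.76) were the others that fell with siTAZ #2, and PTGS2 rose with siTAZ #1 (1.99). MMP1, the interstitial collagenase, rose with siTAZ #1 (1.64 ± 0.10, FDR 0.00087) and was at -0.19 with siTAZ #2, not called (direct difference 1.83 ± 0.10, FDR 0.00057). Fewer target genes were called higher with each siRNA without replicate 1 of siNTC, where the same limit on calls over all genes applies.

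Partners and upstream factors were read in the same way, beside 20.6% of all genes called with siTAZ #1 and 28.5% with siTAZ #2. Of the other bZIP genes, 12 of 13 were tested, and 1 rose and 2 fell with siTAZ #1, while 1 rose and 1 fell with siTAZ #2 (medians 0.14 and -0.14). ATF2, a partner of JUN, rose with both (0.94 and 0.72, FDR 0.0041 and 0.0064). JDP2 and BATF2 fell with siTAZ #1 (-0.69 and -1.56). ATF7 fell with siTAZ #2 (-1.12) and was at -0.43 with siTAZ #1, not called (direct difference 0.69, FDR 0.0096). Of the 19 kinases and factors upstream, 2 rose and 2 fell with siTAZ #1, and 3 rose and 2 fell with siTAZ #2 (medians -0.09 and -0.10). ELK4, a partner of the serum response factor, rose with both (2.02 and 1.24, FDR 0.005 and 0.015). MAPK3, the gene of ERK1, fell with siTAZ #1 (-1.06) and rose with siTAZ #2 (0.49), and the direct difference was -1.55 ± 0.13 (FDR 0.0012). MKL2 rose (0.73) and MAPK8 fell (-0.91) with siTAZ #1, whereas MEF2D rose (0.39) and MEF2A (-0.62) and MAPK14 (-0.43) fell with siTAZ #2. Of the 8 genes for TAZ, YAP and TEAD proteins and their VGLL relatives, YAP1 (0.64 and 0.54) and VGLL4 (0.50 and 0.49) rose with both siRNAs. TEAD1 rose with siTAZ #1 (0.60), and TEAD2 (0.98) and TEAD3 (0.55) rose with siTAZ #2.

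**Figure D5:**
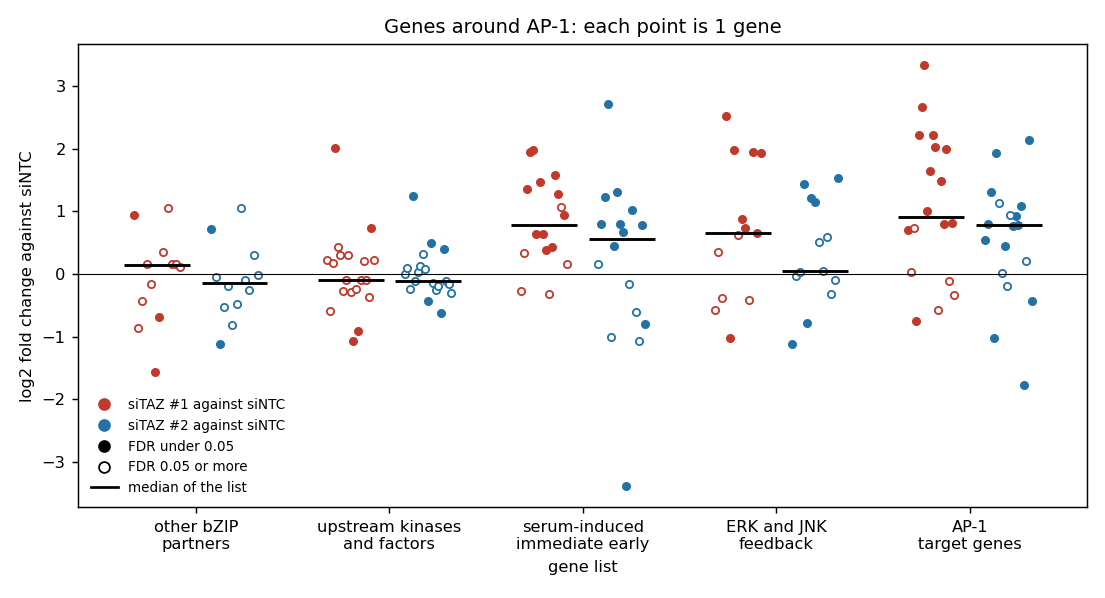
Log2 fold change against siNTC of each gene in the lists around AP-1, with filled points for FDR under 0.05, open points otherwise and a line at the median of the list. The medians of the immediate early genes lie at 0.79 and 0.56 and those of the AP-1 target genes at 0.91 and 0.78, while those of the bZIP partners and upstream factors lie between -0.14 and 0.14.

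For JUNB and MAFK, the members with the largest changes, the genes with the most similar levels over the 6 libraries were sought by Pearson's r of log2 CPM. For MAFK these were the interferon-regulated factor gene IRF1 (r = 0.999), the transporter gene ABCC4 (0.998) and FAM125B (0.997). For JUNB they were ZNF295 (r = 0.995), ZNF117 (0.994) and KPNA5 (0.993), a gene for an importin. IRF1 was at 28.8 and 26.5 CPM in the control libraries, at 44.7 and 45.6 CPM with siTAZ #1 and at 60.1 and 58.1 CPM with siTAZ #2. Such likeness was common, as 381 genes had an r over 0.95 with MAFK and 248 with JUNB, and the 6 points share their libraries and depth.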

How the data were processed

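HFL-1 cells were profiled in 6 libraries. The deposited values are raw counts per gene, which the authors made from Ion Proton reads by TMAP alignment to hg19 and counting with HTSeq 0.6.1, without normalization. Of 23368 entries, 13 hold a date in place of a symbol and were left out (0.0458% to 0.0506% of counts).

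Low counts were removed in R 4.3.3 by filterByExpr (minimum count 10), libraries were scaled by TMM, and edgeR 4.0.16 ran its quasi-likelihood test in 1 fit of all libraries, with Benjamini-Hochberg adjustment over 14053 genes. No permutation of 2 against 2 libraries goes below p = 0.333. Exon length and GC content come from GENCODE lifted to GRCh37 (GC known for 95.6%). The scripts were tested on simulated data, with a spread set below the one fitted here and no near-empty stretch. That test checks the code and does not measure what could be detected in these libraries. The members, lists, tests and alternatives were chosen with earlier results of these data known. Genes named from lists were those called with both siRNAs in 1 direction, at most 4 a list by the lower of their absolute changes, and the gene with the lowest FDR between the siRNAs, while others were named after their values were seen because they make up a count of 5 or fewer. Alternatives were DESeq2 1.42.0, RLE factors, library totals, no filter, a mean count of at least 50, fits of 4 libraries, a replicate block, omission of the near-empty stretch from RANGAP1 on, a GC offset and leaving out each library. A crossed replicate block was chosen after seeing the data. Wilson intervals have a confidence level of 0.95.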

Additional observations from a re-analysis of the deposited data

Results flagged for a closer look

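Of the members, 5 differed between the siRNAs by the direct test, siTAZ #1 against siTAZ #2, where 28.6% of all genes tested were called. The log2 difference was 1.23 for FOSL1 (FDR 0.0014), 0.80 for MAFF (FDR 0.0097), -0.42 for MAFK (FDR 0.045), -0.71 for FOSL2 (FDR 0.0088) and -1.38 for JUNB (FDR 0.012). The libraries of the groups did not overlap for any of these, which also held for 65.6% of all genes tested. What set the siRNAs apart was not tested.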

How the results depend on the processing

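Of the member values under the 16 alternatives, 415 kept their direction and their side of the threshold, 24 became called, 27 lost their call and 8 turned. The number of members called with siTAZ #2 was 5 by DESeq2, in the fit of 4 libraries and without the near-empty stretch. The share over all genes in these fits is not given here, so this number has no background beside it. Leaving out 1 library gave 1 to 6 members with siTAZ #1 (0 to 5 higher and 1 in each case lower), 3 to 5 with siTAZ #2 (2 to 3 higher, 1 to 2 lower) and 1 to 6 between the siRNAs (1 to 3 higher, 0 to 4 lower). Over all genes it gave 276 to 2502 higher and 283 to 2603 lower with siTAZ #1, 629 to 3079 higher and 729 to 2996 lower with siTAZ #2, and 1027 to 2826 higher and 791 to 2862 lower between the siRNAs. The values that turned were JUND with the GC offset (-0.072 with siTAZ #1, -0.23 with siTAZ #2 and 0.16 between the siRNAs), FOS with siTAZ #1 without siNTC replicate 1 (range -0.58 to 0.32 over single omissions), JUN with siTAZ #1 without its replicate 1 (-0.34 to 0.0055), BATF3 with siTAZ #1 without its replicate 2 (-0.052 to 0.74), and JUN between the siRNAs without siTAZ #1 replicate 2 (-0.11) or siTAZ #2 replicate 2 (-0.045), up to 0.24. None of these was called, and the cause was not tested. The labels do not say whether libraries with the same replicate number were handled together. The deviations of same-numbered libraries correlated at -0.01, 0.02 and -0.29 over genes, the last between siTAZ #1 and siTAZ #2. With 2 libraries a group, these values do not settle whether the samples were paired. With a replicate block, 3 members were called with siTAZ #1, 3 with siTAZ #2 and 4 between the siRNAs, and with the crossed block 3, 4 and 5. The shares over all genes in these block fits are not given here, so these counts have no background beside them. BATF3 and FOSB did not reach a mean count of 50, and depth limits what can be seen for FOS, FOSB and BATF3.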
